A study of Mus musculus with 12 samples.

Results

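The genes described here are interferon-gamma (Ifng), its receptor chain Ifngr1, both chains of the type I interferon receptor (Ifnar1 and Ifnar2), the receptor-bound kinases Jak1, Jak2 and Tyk2, and the transcription factor Stat2. They were taken by symbol and make up 8 of the 770 genes of the panel, all 8 among the 750 genes that were tested beside 20 reference genes. Expression was measured in 12 tumors of A20 cells, a Balb/c mouse B-cell lymphoma line, grown under the skin of female Balb/c mice. The tumors fell into 3 groups of 4 mice. PBS was injected into the tumors of the first group, GLA-SE (10 µg of glucopyranosyl lipid A, a synthetic TLR4 agonist, in a stable emulsion of 2%; named G100 in the study) into those of the second, and the emulsion alone (SE) into those of the third. Every tumor received 3 injections, 1 every other day, and was collected 2 h after the last. The comparisons ask how GLA-SE and its carrier each change these genes against PBS, and what GLA adds to the carrier.

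Interferon-gamma is made mainly by activated NK cells and T cells and binds a receptor of the IFNGR1 and IFNGR2 chains, to which JAK1 and JAK2 are bound. Type I interferons bind IFNAR1 and IFNAR2, whose kinases are TYK2 and JAK1 and whose signal reaches the nucleus with STAT2 as part of a complex with IRF9. In DNA, the interferon-gamma signal acts at the interferon-gamma activated site (GAS), and the complex that holds STAT2 binds the interferon-stimulated response element (ISRE).

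The start regions of 4 of these genes hold the letters of one of these elements, and these 4 are shown so that the matches can be read in their setting. In the RefSeq promoters (GRCm38.p6) all members were found, and each entry covers 250 bases before and 50 after each gene start. GAS was searched as TTCNNNGAA, which reads the same on the other strand, and ISRE as GAAA followed after 2 bases by GAAA, on both strands, with no overlap between the 2 motifs in these windows. GAS letters were found in Ifng, Ifnar1 and Ifnar2 and ISRE letters in Stat2. Of 32851 mouse promoters 8.3% held GAS letters and 3.44% ISRE letters, against 11.9% and 7.19% of 695 promoters of panel genes. The windows of 250 bases below are given 5′ to 3′ with the match in capitals, and all 4 lie on the plus strand, at chr10:118440796-118441045 (Ifng), chr16:91484969-91485218 (Ifnar1), chr16:91372533-91372782 (Ifnar2) and chr10:128270248-128270497 (Stat2).
Ifng: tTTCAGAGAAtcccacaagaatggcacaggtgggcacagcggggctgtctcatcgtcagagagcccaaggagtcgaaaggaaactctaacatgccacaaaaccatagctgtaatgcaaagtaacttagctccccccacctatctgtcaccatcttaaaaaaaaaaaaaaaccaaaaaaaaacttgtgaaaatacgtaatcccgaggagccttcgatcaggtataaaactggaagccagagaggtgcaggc
Ifnar1: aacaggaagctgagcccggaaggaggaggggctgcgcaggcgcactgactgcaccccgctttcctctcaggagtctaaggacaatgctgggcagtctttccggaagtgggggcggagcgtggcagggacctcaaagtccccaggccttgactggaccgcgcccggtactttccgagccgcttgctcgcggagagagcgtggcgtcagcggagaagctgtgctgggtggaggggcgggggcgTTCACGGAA
Ifnar2: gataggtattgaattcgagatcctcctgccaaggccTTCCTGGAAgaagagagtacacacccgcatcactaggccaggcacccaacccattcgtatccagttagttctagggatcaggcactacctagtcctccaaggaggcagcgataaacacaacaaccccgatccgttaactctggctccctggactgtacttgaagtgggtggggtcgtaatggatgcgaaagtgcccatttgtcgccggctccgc
Stat2: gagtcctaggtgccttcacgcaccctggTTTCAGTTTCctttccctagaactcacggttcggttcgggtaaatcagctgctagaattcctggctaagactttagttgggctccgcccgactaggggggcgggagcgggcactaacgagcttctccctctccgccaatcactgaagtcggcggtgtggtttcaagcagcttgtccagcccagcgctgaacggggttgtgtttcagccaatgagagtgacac
The match began 249 bases before the gene start in Ifng, 214 before it in Ifnar2 and 222 before it in Stat2, and in Ifnar1 it began 5 bases before the start and ran 4 bases past it. A match in letters is a description of the sequence, and binding was not measured.

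The total count was 810260 to 1612415 per tumor, and the counts were scaled to reference genes (normalized counts). The choice of scale sets the sign of most fold changes below: scaled to the reference genes, the median gene of the panel was 0.89 higher on the log2 scale in GLA-SE than in PBS tumors, and scaled to the panel median it was 0.40 lower (log2 fold change −0.40). Directions are therefore relative to the reference genes throughout. The 8 B-cell markers were all measured in all groups, with a summed level of 14707 to 24104 normalized counts, in a tumor labelled as a B-cell lymphoma. SE replicate 4 stood apart, with a geometric mean of the 20 reference genes of 959 counts where the other tumors had 1460 to 2587 and a summed level of endothelium and fibroblast markers of 125502 normalized counts where the other SE tumors had 3650 to 29142. Values without it are given beside the comparisons with SE tumors. A tumor holds many cell types, and more cells of a type cannot be told apart from more mRNA per cell.

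All 8 genes were higher in GLA-SE than in PBS tumors, at an adjusted p under 0.05 and with no overlap between the groups, on the reference gene scale. The rises were 1.53-fold in Ifngr1, 1.72-fold in Tyk2, 1.73-fold in Jak1, 1.74-fold in Stat2, 1.89-fold in Ifnar1, 2.24-fold in Ifnar2, 2.53-fold in Ifng and 2.70-fold in Jak2 (ratios of group means). Of all 750 genes, 68% were called higher and 0.533% lower by the same test, 63.5% were higher without overlap and 1.07% lower, so most of the panel moved as these 8 did. The members' median log2 fold change was 0.85 beside 0.89 for the panel. In SE against PBS tumors 0 of 8 were called, and in GLA-SE against SE tumors 0 of 8. These 3 comparisons share tumors and are given side by side.

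**Figure D1:**
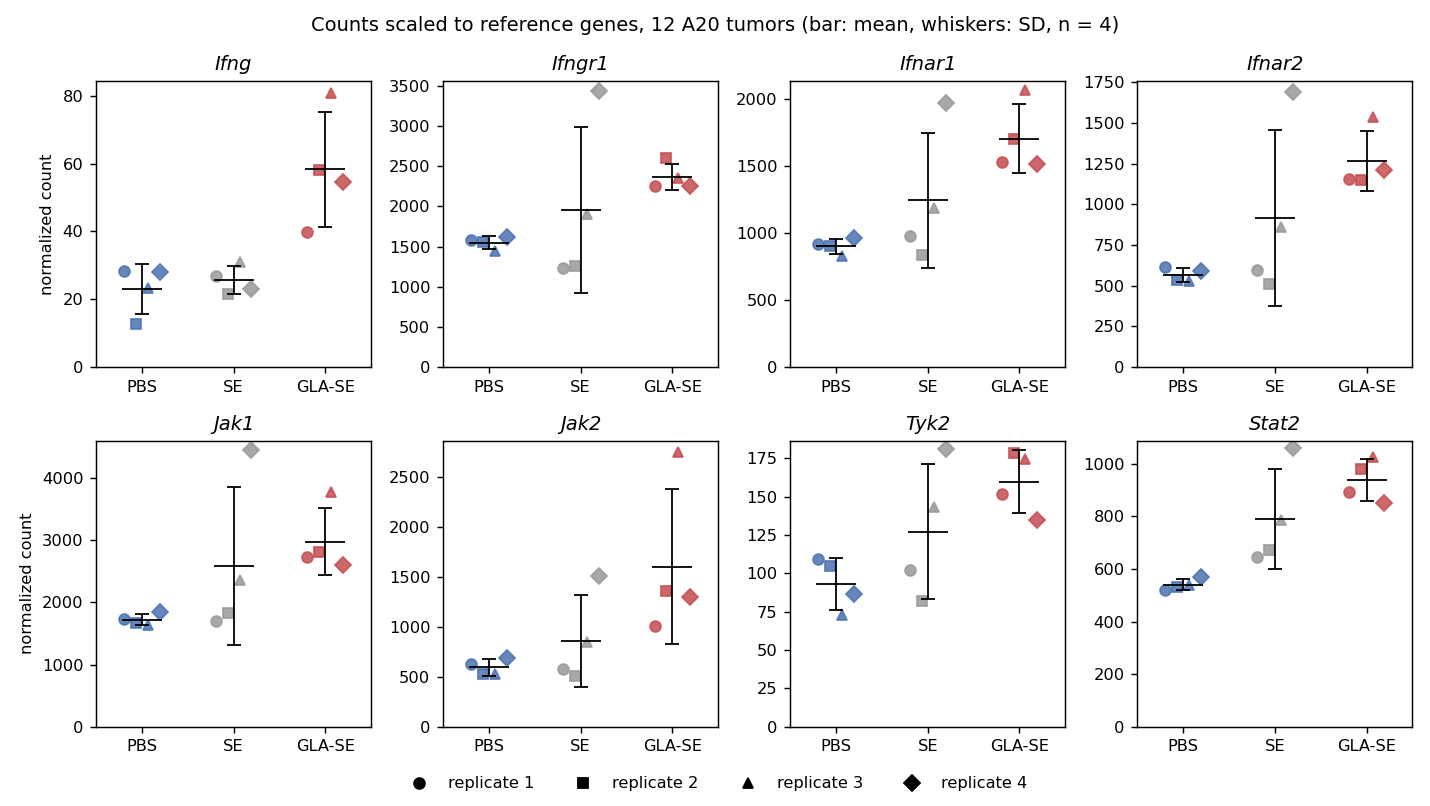
Normalized counts (vertical axis, linear, from 0) of the 8 genes in each tumor, by group (horizontal axis), with the symbol giving the replicate number, which only names a tumor, and bars and whiskers giving the mean and SD of 4 tumors. For every gene the 4 GLA-SE tumors lie above the 4 PBS tumors, and SE replicate 4 (grey diamond) is the highest SE tumor for 7 genes but not for Ifng.

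Ifng, the ligand, was counted close to the methods' threshold in PBS and SE tumors. Its deposited counts were 13 to 34 in PBS tumors, 11 to 39 in SE tumors and 40 to 72 in GLA-SE tumors, and the threshold in the study's methods was 20. Normalized, it had 28.3, 12.6, 23.4 and 27.9 counts in PBS replicates 1 to 4, 27.0, 21.5, 31.0 and 23.2 in the SE replicates, and 39.9, 58.0, 80.9 and 54.7 in the GLA-SE replicates. The lowest GLA-SE tumor was thus above the highest tumor of either other group, and PBS and SE tumors overlapped. The log2 fold change was 1.33 (adjusted p = 0.0061 by edgeR's quasi-likelihood test, with a standard error of 0.31) against PBS, above that of 72% of the panel. Against SE tumors it was 1.26 (standard error 0.33, 95% interval 0.49 to 2.02), above that of 88.4% of the panel, with an unadjusted p of 0.00513 that became 0.0935 after adjustment over 750 genes by edgeR's quasi-likelihood test. The groups of this comparison did not overlap either (two-sided exact permutation p = 0.0286, the smallest that 4 tumors against 4 allow), as was so for 15.6% of genes that were higher. Of the alternatives, only all 12 tumors in 1 fit (adjusted p = 0.0423, edgeR) and DESeq2 on reference gene size factors (adjusted p = 0.00427) called it. It was not called in any of 8 fits that left out 1 tumor (adjusted p = 0.058 to 0.227, edgeR), and the log2 fold change was 0.67 with TMM scaling, 0.54 with quantile normalization and 0.23 with the panel median as the scale (adjusted p = 0.310, 0.516 and 0.680, edgeR and limma). With DESeq2's own size factors the adjusted p was 0.259, and with the replicate number as a block 0.172 (edgeR). SE and PBS tumors differed by 0.18 in Ifng on the log2 scale (95% interval −0.54 to 0.90, adjusted p = 0.678, edgeR), and without PBS replicate 2, the lowest tumor, by −0.019.

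Markers of the cells that make interferon-gamma were called about as often as the panel against PBS, 4 of 6 for NK cells and 5 of 9 for T cells beside 68% of all genes, and 0 of either list against SE. The summed level of 6 NK cell markers was 317 to 993 normalized counts in PBS tumors, 391 to 1046 in SE tumors and 1418 to 1614 in GLA-SE tumors, where it did not overlap with either other group. Among the NK markers called against PBS was Ncr1, an activating NK receptor (log2 fold change 1.65). Without SE replicate 4, 2 of 6 NK markers and 7 of 9 T cell markers were called higher in GLA-SE than in SE tumors, beside 14.3% of the panel. Under panel median or TMM scaling 0 of either were higher against PBS, and 1 NK marker was called lower under each. Summed T cell markers (9 genes) were 967 to 2689 in PBS, 2696 to 3753 in GLA-SE and 829 to 5658 in SE tumors, with the highest value in SE replicate 4, whose Ifng level was 23.2. Per 1000 summed NK marker counts of the same tumor, a ratio that a scale factor per tumor leaves as it is, Ifng had 40.4 ± 9.41 counts in PBS tumors (SD, n = 4), 38.1 ± 10.6 in GLA-SE tumors and 40.6 ± 20.3 in SE tumors. The ranges overlapped (28.5 to 51.3, 24.7 to 50.1 and 22.1 to 69.0), and the two-sided exact permutation p was 0.714 for GLA-SE against PBS and 0.857 for GLA-SE against SE. Per 1000 summed T cell marker counts Ifng had 12.8 ± 2.00 in PBS, 17.6 ± 4.78 in GLA-SE and 19.5 ± 11.7 in SE tumors (exact permutation p = 0.2 and 0.886 for the same comparisons), where SE replicate 4 had 4.09 and the other SE tumors 20.7 to 32.5. After Benjamini-Hochberg adjustment over 6 such comparisons each p was 0.943, and a p of this size does not show that the ratios are equal. These ratios were chosen after the values were seen, some of the NK genes are also used by T cells, and the part of either cell type in the Ifng level was not tested.

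Of 10 genes listed as inducers of Ifng or their receptors, 9 were higher in GLA-SE than in PBS tumors and 0 lower. Of the whole panel 68% were called higher. The median log2 fold change was 1.29, beside 0.89 for the panel. Fewer were called under some other settings, 0 of 10 with the panel median as the scale, 2 with TMM and 3 with Benjamini-Yekutieli adjustment. Each fit that left out 1 PBS tumor called 7, and Il12b was not among them. Il12rb2, a chain of the interleukin-12 receptor, rose by 2.20 and Il18, a cytokine that acts with interleukin-12, by 1.71, both without overlap, and Il12b, which encodes a subunit of interleukin-12, rose by 2.64 with overlapping groups (adjusted p = 0.00742, 0.00243 and 0.0412, edgeR). Against SE tumors 0 of the 10 were called, and 3 without SE replicate 4.

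The receptor chain of interferon-gamma had the smallest rise of the members. Ifngr1 had 1586, 1557, 1440 and 1617 normalized counts in PBS replicates 1 to 4 and 2251, 2599, 2356 and 2253 in the GLA-SE replicates. Its log2 fold change of 0.60 (adjusted p = 0.000672, edgeR, with a standard error of 0.088) was below the panel's median. In SE tumors it had 1239, 1254, 1903 and 3434, so that replicates 1 and 2 were below all PBS tumors and replicates 3 and 4 above them. SE against PBS gave 0.37 (95% interval −0.41 to 1.15), and −0.073 without SE replicate 4.

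Ifnar1 had 915, 907, 828 and 961 normalized counts in PBS tumors, 981, 834, 1190 and 1969 in SE tumors and 1534, 1703, 2068 and 1512 in GLA-SE tumors. Ifnar2 had 616, 533, 526 and 590 in PBS tumors, 598, 509, 860 and 1693 in SE tumors and 1159, 1152, 1540 and 1215 in GLA-SE tumors. For both chains every GLA-SE tumor was above every PBS tumor, and SE replicate 4 was the 1 SE tumor that reached the GLA-SE range. The log2 fold changes against PBS were 0.91 (standard error 0.12) for Ifnar1 and 1.16 (standard error 0.13) for Ifnar2, with adjusted p = 0.000473 and 0.000224 by edgeR's quasi-likelihood test. Against SE tumors they were 0.53 (95% interval −0.14 to 1.21) and 0.55 (−0.33 to 1.43), neither called. Without SE replicate 4 they were 0.84 and 1.02, and that of Ifngr1 0.76, all 3 then called (adjusted p = 0.0423, 0.0386 and 0.0488, edgeR), while 107 of 750 genes (14.3%) were called in place of 16.

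Ratios of members within a tumor do not depend on a scale factor per tumor, though quantile normalization alters them, and were compared for 7 pairs chosen by shared receptor or kinase. Since probes differ in efficiency, the ratio of counts is not the ratio of mRNA molecules, and only its change between tumors is read. Ifngr1 over Ifnar1 was 1.73, 1.72, 1.74 and 1.68 in PBS replicates 1 to 4 and 1.47, 1.53, 1.14 and 1.49 in the GLA-SE replicates, lower in each GLA-SE tumor. The log2 difference was −0.30, and without GLA-SE replicate 3, the lowest, −0.20. Ifnar2 over Ifnar1 went the other way, with 0.673, 0.587, 0.636 and 0.614 in PBS and 0.756, 0.677, 0.745 and 0.803 in GLA-SE tumors, a log2 difference of 0.25. The interferon-gamma receptor chain was thus lower relative to the type I receptor in every GLA-SE tumor than in any PBS tumor, and Ifnar2 higher relative to Ifnar1. Each difference had an exact permutation p of 0.0286 that became 0.2 after Benjamini-Hochberg adjustment over 21 pairs and comparisons, and 2 of 7 pairs without overlap (4 without GLA-SE replicate 1) stand beside 34.9% of all pairs of panel genes.

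**Figure D2:**
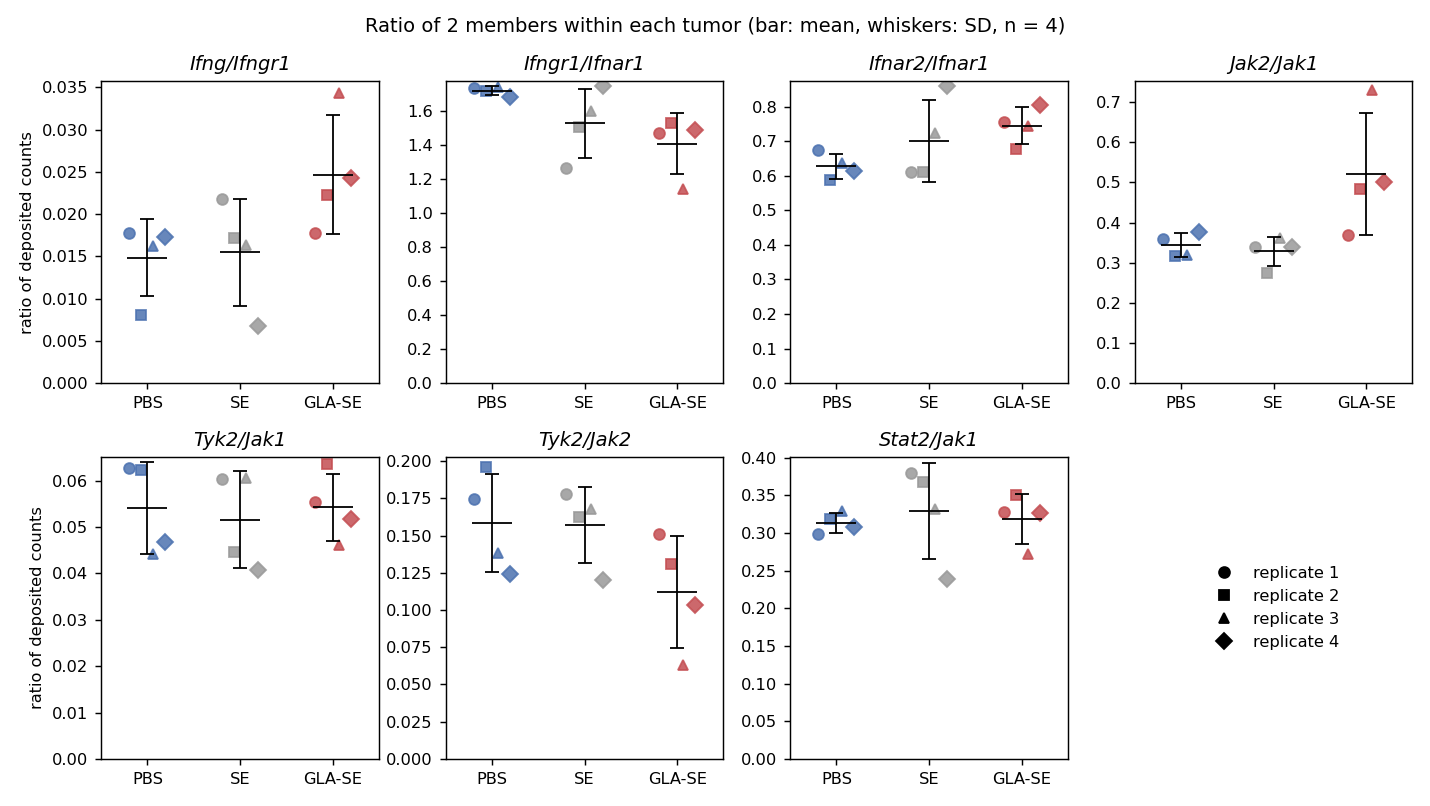
Ratio of the deposited counts of 2 genes in the same tumor (vertical axis, linear, from 0) for 7 pairs, by group (horizontal axis), with bars and whiskers for the mean and SD of 4 tumors. Ifngr1/Ifnar1 is 1.68 to 1.74 in PBS tumors, 1.26 to 1.74 in SE tumors and 1.14 to 1.53 in GLA-SE tumors. Jak2/Jak1 is 0.368 to 0.730 in GLA-SE tumors and 0.275 to 0.360 in SE tumors.

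Among the kinases, Jak2, which serves the interferon-gamma receptor, had the largest fold change and the widest spread between GLA-SE tumors. It had 626, 532, 524 and 693 normalized counts in PBS tumors, 574, 504, 853 and 1508 in SE tumors and 1005, 1360, 2750 and 1303 in GLA-SE tumors. GLA-SE replicate 3 had over 2 times the count of the next, and in the same tumor the summed neutrophil markers were 11607 normalized counts where the other GLA-SE tumors had 1249 to 2949, whose part in it was not tested. The log2 fold change against PBS was 1.43 (adjusted p = 0.00354, edgeR, with a standard error of 0.30), above that of 76.3% of the panel, and 1.04 without that tumor (adjusted p = 0.000465, edgeR). Against SE tumors it was 0.99 (95% interval −0.049 to 2.04, adjusted p = 0.270, edgeR), 0.56 without GLA-SE replicate 3 and 1.40 without SE replicate 4.

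Jak1, which serves both receptors, had 1736, 1673, 1640 and 1843 normalized counts in PBS tumors, 1694, 1832, 2366 and 4447 in SE tumors and 2729, 2805, 3769 and 2605 in GLA-SE tumors. SE replicate 4 was the highest of all 12 tumors. The log2 fold change of GLA-SE against PBS was 0.79 (adjusted p = 0.00118, edgeR, with a standard error of 0.13), and that of GLA-SE against SE 0.29 (95% interval −0.47 to 1.05). Without SE replicate 4 the latter was 0.67 (adjusted p = 0.0745, edgeR), and SE against PBS fell from 0.62 to 0.20. Tyk2, a kinase of the type I receptor, was measured with 76 to 166 deposited counts. Normalized, it had 109, 104, 72.5 and 86.3 in PBS tumors, 102, 81.9, 143 and 181 in SE tumors and 152, 178, 174 and 135 in GLA-SE tumors. Its log2 fold change of 0.77 against PBS (adjusted p = 0.00839, edgeR, with a standard error of 0.20) was called, though not with all 12 tumors in 1 fit (adjusted p = 0.0598) or with Benjamini-Yekutieli adjustment (0.0604). In the same fit of 12 tumors Ifngr1 was not called either (adjusted p = 0.102, edgeR).

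Jak2 over Jak1, a ratio of 2 kinases of the interferon-gamma receptor, was 0.368, 0.485, 0.730 and 0.500 in GLA-SE replicates 1 to 4 and 0.339, 0.275, 0.360 and 0.339 in the SE replicates. Every GLA-SE tumor was above every SE tumor, by 0.63 on the log2 scale (0.45 without GLA-SE replicate 3, and 0.65 without SE replicate 4), with an exact permutation p of 0.0286, adjusted 0.2. It was the 1 of 7 pairs without overlap in that comparison (2 without GLA-SE replicate 1, SE replicate 1 or SE replicate 4), beside 13.1% of all pairs of panel genes. PBS tumors had 0.318 to 0.376, overlapping with GLA-SE replicate 1 (exact permutation p = 0.0571). Tyk2 over Jak1 and Stat2 over Jak1 differed between GLA-SE and PBS tumors by 0.013 and 0.019 on the log2 scale (exact permutation p = 0.914 and 0.886). In SE against PBS tumors 0 of 7 ratios were without overlap (2 without SE replicate 4), beside 5.81% of all pairs.

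Stat2, the member that works inside the cell as a transcription factor, was the 1 member whose SE tumors did not overlap with the PBS tumors, which varied little (coefficient of variation 3.83%). It had 518, 533, 541 and 568 normalized counts in PBS tumors, 644, 673, 785 and 1061 in SE tumors and 894, 982, 1025 and 850 in GLA-SE tumors. All SE tumors were above all PBS tumors, and SE replicate 4 was above all GLA-SE tumors. The log2 fold change of SE against PBS was 0.58 (standard error 0.20, 95% interval 0.12 to 1.03), with an unadjusted p of 0.0189 and an adjusted p of 0.228 by edgeR's quasi-likelihood test. The exact permutation p was 0.0286, and 9.33% of genes were higher in SE tumors without overlap, 0.933% lower. By edgeR 0% of the 750 genes were called higher in SE than in PBS tumors, while 19.6% had an unadjusted p under 0.05, and DESeq2 with reference gene size factors called 63 genes, Stat2 among them (adjusted p = 0.0404). GLA-SE against PBS gave 0.79 (adjusted p = 0.000419, edgeR, with a standard error of 0.10), and GLA-SE against SE 0.32 (95% interval −0.17 to 0.82). Without SE replicate 4, SE against PBS was 0.38 (adjusted p = 0.259, edgeR) and GLA-SE against SE 0.49 (adjusted p = 0.0884, edgeR). With the panel median as the scale and all tumors kept, SE against PBS was 0.079 (adjusted p = 0.960, edgeR).

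**Figure D3:**
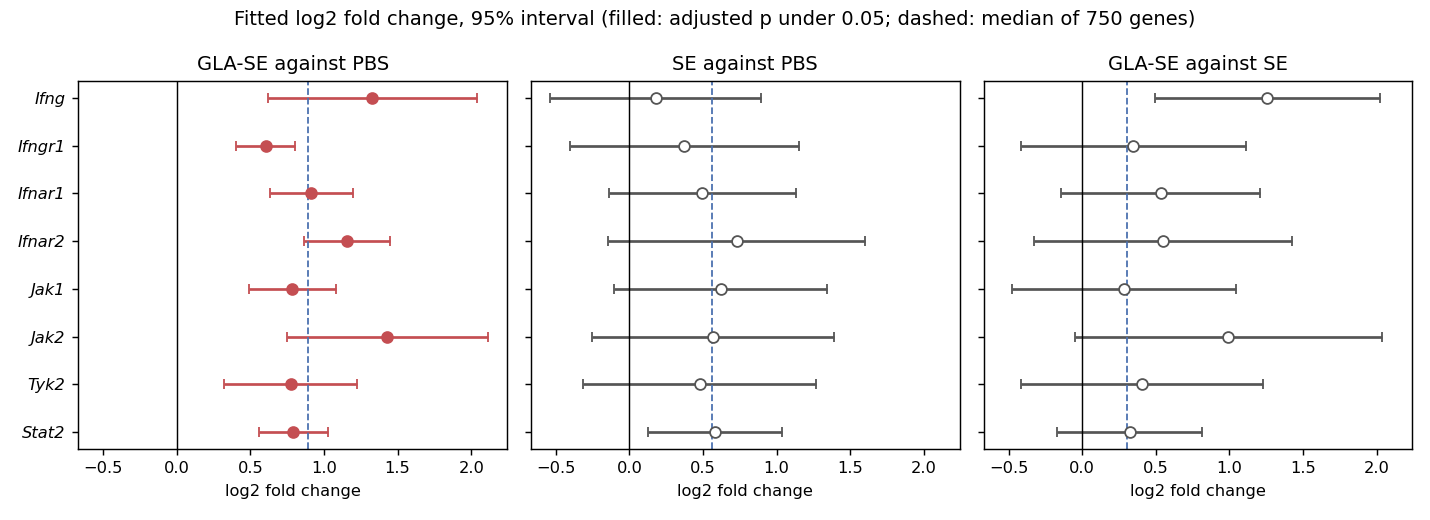
Fitted log2 fold change (horizontal axis) of each gene (vertical axis) in the 3 comparisons, with the 95% interval of the edgeR fit as a bar, filled points for an adjusted p under 0.05, a solid line at 0 and a dashed line at the median of the 750 genes. All 8 points are filled in GLA-SE against PBS, and in GLA-SE against SE the interval of Ifng alone lies above 0.

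In SE against PBS tumors the other 7 members had log2 fold changes of 0.18 in Ifng to 0.73 in Ifnar2, each with a 95% interval that held 0 (for Ifnar2 −0.15 to 1.60). Without SE replicate 4 these 7 lay between −0.073 in Ifngr1 and 0.24 in Tyk2, with Ifnar2 at 0.22, Ifnar1 at 0.16 and Jak2 at 0.12, and the median of all 8 members was 0.20 in place of 0.53 (panel median 0.22 in place of 0.56). In GLA-SE against SE tumors, where 2.13% of genes were called higher and 0% lower, the lowest value was 0.29 in Jak1 and the highest 1.26 in Ifng. Leaving out SE replicate 4, the lowest was 0.49 in Stat2 and the highest 1.40 in Jak2, with a median of 0.80 in place of 0.47. The order of the group means was GLA-SE, SE, PBS for all 8 members. Between SE and PBS the tumors overlapped for 7 of 8, and between GLA-SE and SE also for 7 of 8, so that with all 12 tumors the neighbours in this order were separated only for Stat2 in the first and Ifng in the second. When SE replicate 4 was left out, every GLA-SE tumor was above every SE tumor for 7 of 8 members, all but Tyk2, as was so for 38.7% of the panel, while SE and PBS tumors still overlapped for all but Stat2 (11.5% of the panel were then higher without overlap). The SE mean over the other 3 tumors fell for Ifngr1 from 1957 to 1465 normalized counts, below the PBS mean of 1550, and that of Jak1 from 2585 to 1964. That of Ifng was 25.7 with it and 26.5 without it.

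Ligands of the type I and type III receptors were measured near the floor of the panel. The 5 such genes summed to 66.5 to 171 normalized counts in PBS tumors, 84.7 to 133 in GLA-SE tumors and 73.3 to 127 in SE tumors, with Ifna2 and Ifnb1 (interferon-beta) under 20 counts in every tumor. None of the 5 was called in any of the 3 comparisons on the reference gene scale. In GLA-SE against PBS the panel median as the scale called 5 of 5 lower and TMM 3. Quantile normalization and DESeq2 with its own size factors each called 2 lower. Genes listed as type I interferon targets were higher in GLA-SE than in PBS tumors, 15 of 16 with 0 lower and a median log2 fold change of 1.56. The panel had 68% called higher and a median of 0.89. Other scales called fewer of the 16, 4 higher and 1 lower with the panel median, 10 higher with TMM and 6 higher with quantile normalization. Among them Oasl1, an oligoadenylate synthetase-like gene, rose by 4.07, Rsad2, which encodes the antiviral protein viperin, by 2.69 and Isg15, a ubiquitin-like modifier, by 2.17 (adjusted p = 0.00253, 0.000695 and 0.00109, edgeR). Against SE tumors 0 of 16 were called, with a median of 0.63 beside 0.30 for the panel, and without SE replicate 4 1 of 16, with a median of 1.16 beside 0.68. Their summed level was 1317 to 1797 normalized counts in PBS tumors, 4423 to 7803 in GLA-SE tumors and 1648, 1608, 3964 and 6108 in SE replicates 1 to 4, so that 2 SE tumors lay in the PBS range and SE replicate 4 in the GLA-SE range.

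Genes listed as interferon-gamma targets were called in both comparisons with GLA-SE on the reference gene scale, though against SE the calls depended on single tumors. Of 14, 12 were higher in GLA-SE than in PBS tumors and 0 lower (median log2 fold change 1.28), beside 68% of the panel called higher (median 0.89). They were led by Nos2, the inducible nitric oxide synthase, with 2.72, Fcgr1, a high-affinity Fc receptor, with 2.61, and Gbp5, a guanylate-binding protein, with 2.44. Of the same 14, 4 were higher in GLA-SE than in SE tumors, beside 2.13% of the panel. Gbp5 rose by 2.04, Gbp2b by 1.51 and Cxcl9, a chemokine that draws T cells, by 1.46 in that comparison (adjusted p = 0.0284, 0.0123 and 0.0157, edgeR). The fourth gene, named after its values were seen, was the transcription factor Irf1, with 1.09 (adjusted p = 0.039, edgeR). These calls against SE were 0 of 14 with the panel median, TMM or quantile normalization, with the replicate number as a block and with Benjamini-Yekutieli adjustment. Leaving out GLA-SE replicate 2, GLA-SE replicate 4, SE replicate 1 or SE replicate 3 gave 0 calls, leaving out SE replicate 2 gave 1, and 7 were left when SE replicate 4 was dropped. Against PBS the panel median as the scale gave 5 of the 14 higher and 4 lower. The summed level of the 14 genes was 19273 to 25621 normalized counts in PBS tumors, 23470 to 26347 in SE tumors and 37807 to 51269 in GLA-SE tumors where all were above every SE tumor, SE replicate 4 included. Whether the 2 target lists differ from each other was not tested, and many interferon targets answer to both kinds of interferon. What induced the genes of either list in these tumors was not tested.

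The other kinases and factors of the pathway moved with the members on the reference gene scale, as did most of the panel (68% called higher against PBS). All 6 other JAK and STAT genes were higher in GLA-SE than in PBS tumors, among them Stat4, which carries the interleukin-12 signal, with 1.34 and Jak3, a kinase of cytokine receptors, with 1.28 (adjusted p = 0.0121 and 0.00109, edgeR). Scaled to the panel median, 0 of these 6 were called higher and 3 lower, and TMM gave 1 higher and 2 lower. Of the 3 feedback inhibitors, the panel median left 1 called higher (Socs3) and TMM 2 (Socs1 and Socs3). All 3 feedback inhibitors were higher against PBS, Socs3 by 3.03, Socs1, which binds and inhibits JAK kinases, by 1.55 and Usp18, which restrains IFNAR2 signaling, by 1.15 (adjusted p = 0.00186, 0.00192 and 0.00763, edgeR), and 0 of 3 were called against SE (1 without SE replicate 4, Socs1). In SE against PBS tumors 0 genes of all these lists were called by edgeR.

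Levels over the 12 tumors were compared with those of other panel genes. By Pearson's r of log2(normalized count + 1), the panel genes most like Ifng among 669 included Socs1 (0.98), Irf1 (0.95), Tnfrsf9 (0.95) and Cd274 (0.95), where the median gene had 0.55. Those most like Jak2 were Mapkapk2 (0.99), Tlr2 (0.99), Prg2 (0.98), Sbno2 (0.98) and Csf3r (0.98), with a median of 0.77, and those most like Stat2 were Lyn (0.98), Cd47 (0.97), H2-K1 (0.97), Il3 (0.96) and H2-D1 (0.96), with a median of 0.76. Among the members, Ifng, with deposited counts of only 11 to 72, had r of 0.50 with its receptor chain Ifngr1 and at most 0.80, with Jak2. The other 7 had 0.84 to 0.99 with one another, the highest between Ifnar1 and Ifnar2. The median panel gene had r of 0.76 (Tyk2) to 0.82 (Ifnar2) with these 7. The share of panel genes over 0.9 was 10.3% (Stat2) to 24.2% (Ifnar2). All these values come from the same 12 tumors in 3 groups and share 1 scaling, and they are given as a description.

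**Figure D4:**
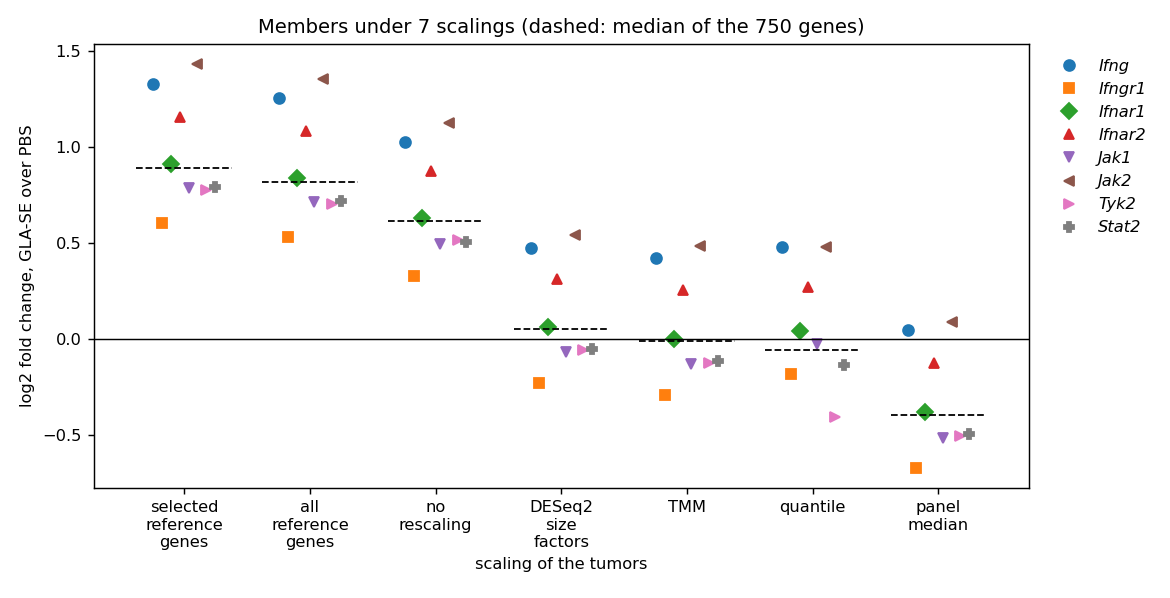
Log2 fold change of GLA-SE over PBS (vertical axis) of the 8 genes under 7 scalings of the tumors (horizontal axis), with dashed lines at the median of the 750 genes. Jak2, Ifng and Ifnar2 lie above that median and Ifngr1 below it under every scaling shown, while 6 of the 8 values are negative with the panel median. All scalings but quantile normalization move every gene of a tumor by the same factor, so this order was largely set in advance.

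Jak2, Ifng and Ifnar2 had the 3 highest values under each of the 7 scalings, though not the same sign. Quantile normalization aside, these scalings move every gene of a tumor by the same factor. The order of the members was therefore largely set in advance, and its agreement between scalings is no further evidence for it. With the panel median as the scale, 6 of 8 members had negative log2 fold changes against PBS, down to −0.67 in Ifngr1, and Ifngr1, Ifnar1, Jak1 and Stat2 were called lower. Ifng was at 0.046 and Jak2 at 0.091, above a panel median of −0.40. Over the whole panel 61 of 368 calls were then higher, where the reference genes gave 510 of 514. With TMM scaling 148 of 316 calls were higher, and 0 of 8 members were called, with Ifng at 0.42 and Ifngr1 at −0.29.

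The cell type markers differed between the groups as well, beside every member. Against PBS, GLA-SE tumors had 8 of 8 monocyte and macrophage markers, 9 of 9 endothelium and fibroblast markers, 5 of 9 T cell markers and 4 of 6 neutrophil markers higher, and 2 of 8 B-cell markers lower (Ms4a1 by −0.46 and Cd79b by −0.42 on the log2 scale). Of the panel 68% were called higher and 0.533% lower. Scaled to the panel median, 2 of 8 monocyte and macrophage markers were higher. Endothelium and fibroblast markers then had 0 of 9 higher and 1 lower, and T cell markers 0 of 9 called. Neutrophil markers had 3 of 6 higher and 2 lower, and 8 of 8 B-cell markers were lower. The summed monocyte and macrophage markers were 3085 to 4632 normalized counts in PBS tumors, 9820 to 20397 in GLA-SE tumors and 3123, 2519, 12404 and 19518 in SE replicates 1 to 4. The neutrophil markers Camp and Ltf were under 20 counts in every tumor. In SE replicates 3 and 4, where the macrophage markers reached the GLA-SE range, Ifng was 31.0 and 23.2, below every GLA-SE tumor, whereas every other member was above every PBS tumor. In SE tumors with low macrophage markers, Stat2 (644 and 673 in replicates 1 and 2) and Ifnar1 (981 in replicate 1) were above every PBS tumor as well. The part of any of these cell types, or of the scale factor, in the levels of the members other than Ifng was not tested.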

How the data were processed

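RNA of 12 A20 tumors was hybridized to an immune gene panel of the nCounter system, in which barcoded probes are counted without amplification. The authors deposited 1 table of whole-number counts for 770 genes. The methods describe normalization in nSolver, but totals and reference genes differ between tumors, so the counts were treated as not normalized. No alignment or genome build applies to them. Totals were 810260 to 1612415, and precision is limited by 4 tumors a group and, for Ifng, by counts of 11 to 72 (an exact Poisson interval of 5.49 to 19.7 for the lowest, counting error only). The labels number 4 tumors in each group and the paper gives 4 mice a group, so each tumor was taken as 1 mouse. No pair of tumors of 1 group agreed within sampling noise (pairs across groups were not compared).

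Groups were taken from the labels. Scale factors came from the geometric mean of reference genes picked by geNorm, 15 in either comparison with PBS and 12 in that of GLA-SE with SE. Normalized counts and group means in the text use 1 set of 17 genes over all 12 tumors, while fold changes on the log2 scale and their p come from the fit of the comparison. Counts were tested with edgeR 4.0.16 (quasi-likelihood, R 4.3.3, no filter on low counts, no covariates) and Benjamini-Hochberg adjustment over 750 genes at 0.05. Single values had two-sided exact permutation tests over 70 assignments, on log2(normalized count + 1). limma 3.58.1 and DESeq2 1.42.0 served as alternatives, with other scalings, a filter of 20 counts in at least 4 tumors, pseudocounts of 1 and 10, the methods' t-test on log2 values, Benjamini-Yekutieli adjustment, the replicate number as a block, and each tumor left out. The gene lists under these alternatives, and overlap without SE replicate 4, were added after seeing the data. The script for the fits was tested on simulated data. Plots were made in Python 3.11.15 (matplotlib 3.10.9). Promoter windows came from RefSeq, GRCm38.p6.

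The members and the gene lists were chosen with earlier results of these data known. Genes named from a list are the 3 with the largest log2 fold change among its called genes with a group mean of at least 20, and those named as most like Ifng, Jak2 or Stat2 are the 5 with the highest correlation. Some genes that this rule picks are not reported here.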

Additional observations from a re-analysis of the deposited data

Results flagged for a closer look

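In 3 of 45 sets of 4 tumors (8 genes and 7 ratios in 3 groups) 1 tumor lay far from the other 3, by Dixon's criterion at 95%, where chance gives about 1 in 20 sets, or 2.25 of 45. Ifnar2 was 1540 normalized counts in GLA-SE replicate 3 and 1152 to 1215 in the other GLA-SE tumors. The ratio of Ifngr1 to Ifnar1 was 1.14 in the same tumor and 1.47 to 1.53 in the others. The ratio of Ifng to Ifngr1 was 0.00807 in PBS replicate 2 and 0.0163 to 0.0178 in the other PBS tumors, and it rests on 13 deposited counts of Ifng.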

How the results depend on the processing

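The alternatives other than scaling kept the direction of all members in GLA-SE against PBS and called 6 to 8 of the 8, with 8 in each fit that left out 1 tumor. Sign changes against the reference genes, all log2 fold changes, came mostly from other scales, which, quantile normalization aside, move every gene of a tumor by the same factor. With the panel median as scale, in GLA-SE against PBS 4 members were called, the members' median was −0.44, reversed values were Ifngr1 −0.67, Ifnar1 −0.38, Ifnar2 −0.13, Jak1 −0.51, Tyk2 −0.51 and Stat2 −0.50. For SE against PBS the members' median was −0.10, reversed values were Ifng −0.19, Ifngr1 −0.31, Ifnar1 −0.10, Jak1 −0.025, Jak2 −0.11 and Tyk2 −0.10. For GLA-SE against SE the members' median was −0.32, reversed values were Ifngr1 −0.36, Ifnar1 −0.28, Ifnar2 −0.14, Jak1 −0.49, Tyk2 −0.41 and Stat2 −0.58. With TMM scaling, in GLA-SE against PBS 0 members were called, the members' median was −0.057, reversed values were Ifngr1 −0.29, Jak1 −0.13, Tyk2 −0.12 and Stat2 −0.12. For SE against PBS the members' median was −0.067, reversed values were Ifng −0.20, Ifngr1 −0.26, Ifnar1 −0.080, Jak2 −0.062 and Tyk2 −0.071. For GLA-SE against SE reversed values were Jak1 −0.11, Tyk2 −0.023 and Stat2 −0.15. Without rescaling, in GLA-SE against PBS the members' median was 0.57. In SE against PBS the members' median was −0.015, reversed values were Ifng −0.19, Ifngr1 −0.23, Ifnar1 −0.033 and Jak2 −0.030. With quantile normalization and limma, in GLA-SE against PBS 0 members were called, the members' median was 0.0085, reversed values were Ifngr1 −0.18, Jak1 −0.026, Tyk2 −0.41 and Stat2 −0.13. In SE against PBS reversed values were Ifng −0.022, Ifngr1 −0.19, Ifnar1 −0.058 and Tyk2 −0.15. In GLA-SE against SE reversed values were Jak1 −0.11, Tyk2 −0.26 and Stat2 −0.21. With DESeq2 and its own size factors, in GLA-SE against PBS 2 members were called, the members' median was 0.0055, reversed values were Ifngr1 −0.23, Jak1 −0.068, Tyk2 −0.056 and Stat2 −0.052. For SE against PBS the members' median was −0.016, reversed values were Ifng −0.16, Ifngr1 −0.22, Ifnar1 −0.029, Jak2 −0.017 and Tyk2 −0.015. For GLA-SE against SE reversed values were Ifngr1 −0.064, Jak1 −0.18, Tyk2 −0.10 and Stat2 −0.23. DESeq2 with reference gene size factors called 1 member in SE against PBS (Stat2) and 1 in GLA-SE against SE (Ifng), and all 12 tumors in 1 fit called 1 in GLA-SE against SE (Ifng). Over the panel, DESeq2 with its own size factors called 48 of 72 genes higher in GLA-SE against SE, where the selected reference genes gave 16 of 16. Across the fits that left out 1 tumor, the members called in GLA-SE against SE ranged from 0 to 3 (3 without SE replicate 4), and those in SE against PBS were 0 in each. Over the panel these fits called 2 to 107 genes in GLA-SE against SE. In the same comparison the panel median and quantile normalization called 0 of 750 genes, Benjamini-Yekutieli adjustment 0 and TMM 3, where the reported fit called 16. All alternatives together called 253 (12 tumors in 1 fit) to 518 genes in GLA-SE against PBS, where the reported fit called 514. The ratios without overlap ranged from 2 to 4 of 7 in GLA-SE against PBS, from 0 to 2 in SE against PBS and from 1 to 2 in GLA-SE against SE. For SE against PBS, Ifng ranged from −0.019 (without PBS replicate 2) to 0.29, and Ifngr1 from −0.073 (without SE replicate 4) to 0.54. The replicate numbers name tumors and did not pair them (3 of 12 correlations of same-numbered tumors above 0.1, range −0.25 to 0.18). With the replicate number as a block, 8 members were called in GLA-SE against PBS (median 0.85), 0 in SE against PBS (median 0.43) and 0 in GLA-SE against SE (median 0.54, and 0 of 750 genes in place of 16). Counts of 11 to 39 for Ifng in SE and PBS tumors limit its precision there. The cause of these differences between settings was not tested.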
